A study of Mus musculus with 10 samples.

Results

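The LIM homeobox genes described here are Lhx1, Lhx2, Lhx3, Lhx4, Lhx5, Lhx6, Lhx8, Lhx9, Isl1 and Isl2. They were chosen by symbol, and all 10 were found among the 22380 protein-coding genes of the GENCODE annotation of the mouse genome build NCBIM37 (mm9). The measurement was ChIP-seq of H3K27me3, the trimethylated lysine 27 of histone H3, in 5 lymphoma lines, each with 1 peak list, made to ask whether this mark changes as cells become drug resistant. The parental line is a B-cell lymphoma line cultured from an Eμ-Myc Cdkn2a-/- mouse of strain C57BL/6J, in which an immunoglobulin heavy chain enhancer drives Myc in cells of the B lineage. From R100 through R500 and R1000 to R4000, the resistant lines were isolated from it during a dose escalation of mafosfamide, an alkylating agent, at 100 nM, at 500 nM, at 1000 nM and at 4000 nM. They were taken at successive steps of the same escalation, so they are not independent derivations. All 5 lines therefore carry Eμ-Myc and lack Cdkn2a, and all were grown without mafosfamide for the ChIP-seq, as the study states. Each list holds positions of peaks with no height, score or count, so the depth behind a list is unknown, and with 1 list per line no replicate error can be set against a difference, so none was tested.

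LIM homeodomain proteins are transcription factors that join a pair of LIM zinc-finger domains, which bind other proteins, to a homeodomain that binds DNA. They act together with the scaffold protein Ldb1 and set the identity of neurons, pituitary cells, gonad, kidney, heart and limb in the embryo. In most cells outside those tissues such genes are silent, and H3K27me3, which Polycomb repressive complex 2 (PRC2) lays down, is the mark usually found over silent developmental genes rich in CpG, that is, C followed by G. The family is made of close relatives that come as pairs, Lhx1 with Lhx5, Lhx2 with Lhx9, Lhx3 with Lhx4, Lhx6 with Lhx8, Isl1 with Isl2, and Lmx1a with Lmx1b, the last pair being outside the 10 genes.

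The measure is the number of bases in distinct peaks from 5 kb upstream of the transcription start site (TSS, the 5′ end of the gene in the annotation) to the end of the gene, called covered bases. Peaks lie on a grid of 50 bp. A gene was counted as covered with at least 150 bases, which is 3 bins of that grid. The lists differed in length. The parental list covered 1.63 Mb in 10778 peaks, R100 5.04 Mb in 25180, R500 4.53 Mb in 21888, R1000 1.61 Mb in 9595 and R4000 1.07 Mb in 6820. The lists of R100 and R500 hold each peak 2 times, and each was counted once. They are also the longest lists, so any difference in how the lists were made cannot be told apart from a difference of these lines. Since depth is unknown, a longer list and a wider mark cannot be told apart, and the ratio over the whole list is given beside the ratios of the genes. No peak lay over Cdkn2a, the deleted gene, in any list, which does not check the deletion. Of 7 genes of T cells, myeloid cells and red blood cells (Cd3e, Cd4, Cd8a, Csf1r, Itgam, Gata1 and Hbb-b1) at most 2 were covered in any list. Of 7 B-cell genes 0 were covered in the parental line and 3 in R100, against 7.67% and 21.7% of all protein-coding genes. The highest in R100 were Cd79b with 1000 covered bases and Ebf1 with 900, and both had 0 in the parental line. In R500, R1000 and R4000 Cd79b had 150, 150 and 0, and Ebf1 had 350, 0 and 100. Peaks do not measure expression, so these genes do not check the cell type.

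Sequences of 6 genes are shown first, because they are where the mark lay in every list. Each is the longest run of bases covered in all 5 lines outside untranslated regions, or its central 300 bases, read from NCBIM37 5′ to 3′ on the strand of the gene. CpG is in capitals.
Lhx9, the central 300 of a run of 1284 bases, in an intron, chr1:140737593-140737892, minus strand: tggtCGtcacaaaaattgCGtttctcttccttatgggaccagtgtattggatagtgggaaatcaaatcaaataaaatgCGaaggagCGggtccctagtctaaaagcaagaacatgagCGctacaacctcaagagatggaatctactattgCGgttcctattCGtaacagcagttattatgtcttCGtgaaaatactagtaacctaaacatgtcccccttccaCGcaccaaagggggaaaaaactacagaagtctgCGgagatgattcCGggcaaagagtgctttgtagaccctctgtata
Isl2, 300 bases with 248 in an exon, chr9:55389901-55390200, plus strand: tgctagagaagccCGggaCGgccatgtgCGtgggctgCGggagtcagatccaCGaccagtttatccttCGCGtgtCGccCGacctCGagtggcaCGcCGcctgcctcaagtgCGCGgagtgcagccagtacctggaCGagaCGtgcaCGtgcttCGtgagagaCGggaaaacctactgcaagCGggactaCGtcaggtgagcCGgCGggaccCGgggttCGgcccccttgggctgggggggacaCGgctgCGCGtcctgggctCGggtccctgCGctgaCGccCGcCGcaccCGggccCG
Lhx4, 200 bases in an intron, chr1:157584151-157584350, minus strand: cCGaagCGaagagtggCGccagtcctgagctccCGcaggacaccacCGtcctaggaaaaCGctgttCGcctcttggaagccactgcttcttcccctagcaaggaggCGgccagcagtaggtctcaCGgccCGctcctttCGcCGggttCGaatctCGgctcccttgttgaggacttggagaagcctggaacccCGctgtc
Lhx2, 100 bases in an intron, chr2:38195351-38195450, plus strand: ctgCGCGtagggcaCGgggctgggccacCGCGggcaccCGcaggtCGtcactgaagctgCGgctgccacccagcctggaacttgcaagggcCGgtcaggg
Lhx1, 50 bases upstream of the TSS, chr11:84339351-84339400, minus strand: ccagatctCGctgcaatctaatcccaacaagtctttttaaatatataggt
Lhx5, 50 coding bases, chr5:120890001-120890050, plus strand: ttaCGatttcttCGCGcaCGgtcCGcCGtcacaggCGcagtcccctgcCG
The Isl2 stretch held 35 CpG in 300 bases and the Lhx9 stretch 11 in 300 bases. The Lhx9 stretch was the longest run of any of the 10 genes and had 43.3% G and C, against 69.7% in the Isl2 stretch, so a high CpG count was not a property of every base marked in all lines.

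In the parental line 7 of the 10 genes were covered, namely Lhx1, Lhx5, Lhx2, Lhx9, Lhx4, Lhx6 and Isl2, against 7.67% of all protein-coding genes. In R100 the number was 8 (21.7% of all genes), with Lhx3 in addition, and in R500, R1000 and R4000 it was again the same 7 genes, against 17%, 8.86% and 7.05% of all genes. These 7 genes were covered in all 5 lines, as were 4.35% of all protein-coding genes. Lhx8 and Isl1 had no covered base in any line, as had 57.2% of all genes. The median over the 10 genes was 1500 covered bases in the parental line, 4950 for R100, 4625 for R500, 2250 for R1000 and 875 for R4000, while the median over all protein-coding genes was 0 in each line. The windows of the 10 genes had a median length of 22405 bp, against 20421 bp for all protein-coding genes.

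**Figure D1:**
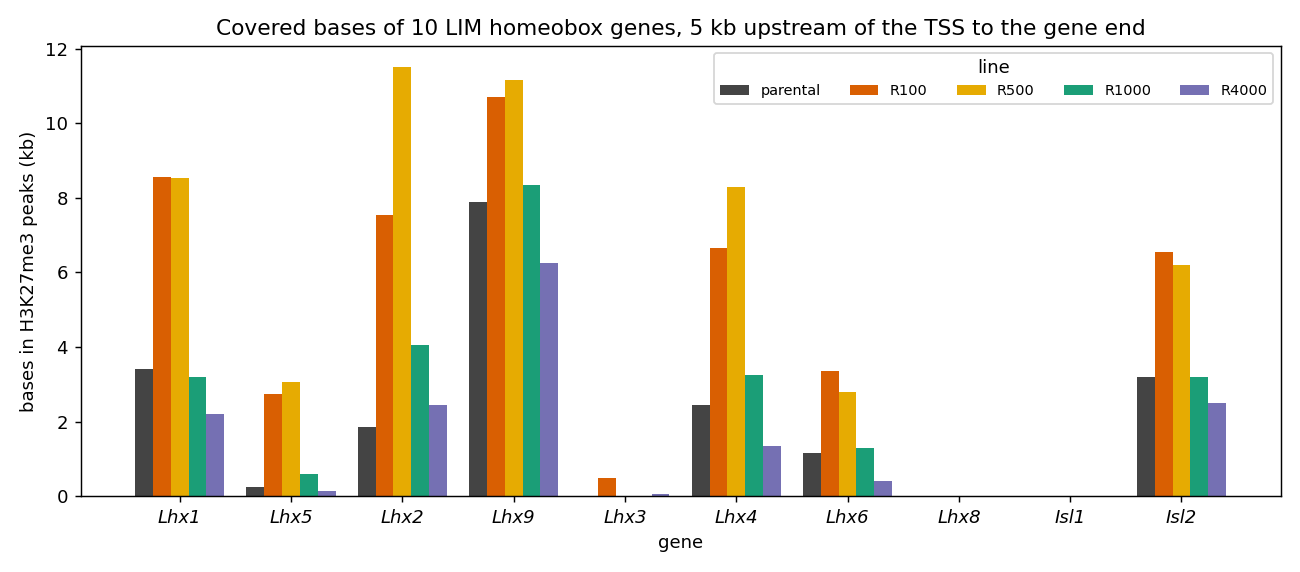
Bars give the kb in H3K27me3 peaks (y axis) for each of the 10 genes (x axis, ordered by related pairs) in the parental, R100, R500, R1000 and R4000 lines, 1 list per line and no error bars. R100 and R500 stand highest for the 7 genes covered in all lines, from 2.75 kb at Lhx5 to 11.5 kb at Lhx2, and Lhx8 and Isl1 have no bar.

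Summed over the 10 genes, 20.2 kb were covered in the parental line, 46.6 kb for R100, 51.5 kb for R500, 23.95 kb for R1000 and 15.35 kb for R4000. R100 thus covered 2.31 times the parental bases, where its whole list covered 3.09 times. The ratio was 2.55 in R500 against 2.78 for its list, 1.19 in R1000 against 0.988, and 0.760 in R4000 against 0.658. R100 and R500 were thus the highest and R4000 the lowest both at the genes and over the lists, but at the genes R500 lay above R100 and R1000 above the parental line, the reverse of the lists. Without Lhx9 the ratios were 2.92 for R100, 3.28 for R500, 1.27 for R1000 and 0.740 for R4000, so that R500 was then above its list. The share of the 10 genes in all covered bases was 1.24% in the parental line, 0.925% for R100, 1.14% for R500, 1.49% for R1000 and 1.43% for R4000, while their windows make up 0.00889% of the genome.

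Lhx1, which is needed for the head organiser and the kidney, lies on chromosome 11 from 84331479 to 84338923 on the minus strand. It had 3400 covered bases in the parental line, 8550 for R100, 8523 for R500, 3200 for R1000 and 2200 for R4000. R100 and R500 were alike and high, and R1000 and R4000 were below the parental line, a pattern that no other of the 10 genes showed. It was also the pattern of the whole lists, at 3.09 times the parental list for R100, 2.78 for R500, 0.988 for R1000 and 0.658 for R4000. In R100 68.7% of the Lhx1 window was covered, the highest share of any of these genes. The parental line had 16 peaks there, the widest 400 bp, while R100 had 9, the widest 2800 bp and lying across the TSS. In the 5 kb upstream of the TSS, 827 bases were covered in the parental line, 3427 for R100, 3450 for R500, 1177 for R1000 and 850 for R4000. Upstream lies a lincRNA gene on the other strand, 1500016L03Rik, which held 3189 of the bases of R100, and its coverage cannot be told apart from that of Lhx1. The neighbour Aatf, 4455 bp away, had 900 covered bases in the parental line and 1100 in R100 in a window that overlaps that of Lhx1 by 546 bp.

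Lhx5, a gene of forebrain and hindbrain neurons, lies on chromosome 5 from 120881895 to 120891466 on the plus strand. Its covered bases were 250 in the parental line, 2750 for R100, 3050 for R500, 600 for R1000 and 150 for R4000. R100 and R500 were 11 and 12.2 times the parental line, the highest ratios of the 10 genes, from a parental line with 2 peaks. Covered bases began 7606 bp downstream of the TSS in the parental line, 6006 bp for R1000 and 6106 bp for R4000, near the 3′ end of the gene. No base within 2 kb of the TSS was covered in the parental line, R1000 or R4000, while 250 were in R100 and 650 in R500.

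Lhx2, a gene of eye and forebrain, lies on chromosome 2 from 38194801 to 38225253 on the plus strand. Covered bases numbered 1850 in the parental line, 7550 for R100, 11500 for R500, 4050 for R1000 and 2450 for R4000. R500 was the highest and ranked 5 among all protein-coding genes by covered bases, and all 4 resistant lines lay above the parental line, including R4000 at 1.32 times. No other of the 7 genes was above the parental line in R4000. Of the R500 bases, 8343 lay in introns, and the widest R500 peak, 2150 bp, was centred 9124 bp downstream of the TSS. Lhx2 has 5 annotated starts, and the nearest lay 1828 bp from that peak.

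Lhx9, which is needed to form the gonads, lies on chromosome 1 from 140721763 to 140745153 on the minus strand. It had 7900 covered bases in the parental line, 10700 for R100, 11150 for R500, 8350 for R1000 and 6250 for R4000. The 5 lines were closer together at Lhx9 than at any other covered gene, from 0.791 to 1.41 times the parental line. It ranked 3 among protein-coding genes by covered bases in the parental line, 8 for R100, 6 for R500, 3 for R1000 and 5 for R4000. The gene held 39.1% of the bases of all 10 genes in the parental line and 23.0% in R100. Most covered bases lay downstream of the 5′ end of the gene, with 497 of the 10700 bases of R100 upstream of it. Lhx9 has 6 annotated transcript starts. The widest R100 peak, 3650 bp centred 7378 bp downstream of the 5′ end, lay over an annotated start. Of the bases covered in any line, 3700 (27.4%) were covered in all 5. The 3 protein-coding genes with the most similar covered bases over the 5 lines were Hoxa10, Hoxa9 and Hoxa3. Their sums of absolute differences were 3453, 4484 and 6381 bases. All 3 lie on chromosome 6, and whether their windows share peaks was not examined. The measure picks genes with a similar number of covered bases, and few genes had as many as Lhx9. Hoxa10 had 7503 covered bases in the parental line, 12153 for R100, 11853 for R500, 8203 for R1000 and 7003 for R4000. The neighbours of Lhx9 were not covered, since Nek7 had 100 bases in R100 and 0 in the other lines and 2310009B15Rik had 0 in each.

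Lhx3, which specifies the pituitary and motor neurons, lies on chromosome 2 from 26055732 to 26063769 on the minus strand. It had 500 covered bases in R100, 50 in R4000 and 0 in the parental line, R500 and R1000. The bases of R100 were in 4 peaks of at most 200 bp, 2869 to 6068 bp downstream of the TSS, and the 50 bases of R4000 lay beside them without overlap. Its relative Lhx4, which acts in the pituitary too, lies on chromosome 1 from 157548827 to 157589157 on the minus strand. Lhx4 had 2450 covered bases in the parental line, 6650 for R100, 8300 for R500, 3250 for R1000 and 1350 for R4000. The order of its lines was that of Lhx2, with R500 above R100, except that R4000 lay below the parental line at 0.551 times. Within 2 kb of the Lhx4 TSS 650 bases were covered in the parental line, 2700 for R100, 2450 for R500, 1800 for R1000 and 550 for R4000. Per length of window, Lhx4 was covered over 5.40% in the parental line and Lhx3 over 0%.

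Lhx6, a gene of cortical interneurons, lies on chromosome 2 from 35937470 to 35960928 on the minus strand. It had 1150 covered bases in the parental line, 3350 for R100, 2800 for R500, 1300 for R1000 and 400 for R4000. R4000 was 0.348 times the parental line, the lowest ratio of the 7 genes, and none of the parental bases of Lhx6 was covered in R4000. The mark was in many narrow peaks, 20 in R100 with none over 450 bp, and no base of Lhx6 was covered in all 5 lines. Lhx8, its relative in the basal forebrain and in oocytes, lies on chromosome 3 from 153969260 to 153993615 on the minus strand and had 0 covered bases in each line. No line had a peak within 50 kb of the Lhx8 window, and the nearest peak lay 261186 bp away in R1000 and 521810 bp away in the parental line.

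Isl2, a gene of motor neurons and retinal ganglion cells, lies on chromosome 9 from 55386479 to 55393987 on the plus strand. It had 3200 covered bases in the parental line, 6550 for R100, 6200 for R500, 3200 for R1000 and 2500 for R4000. R1000 and the parental line had the same number, and 1750 of these bases were at the same positions. In R100 52.4% of the Isl2 window was covered. The processed transcript Gm17226 on the other strand holds 995 of the R100 bases, which cannot be told apart from Isl2. Isl1, which acts in motor neurons, the heart and the pancreas, lies on chromosome 13 from 117088478 to 117099896 on the minus strand and had 0 covered bases in each line. As at Lhx8, no line had a peak within 50 kb of the window, and the nearest lay 388905 bp away in R100 and 708955 bp away in R4000. The windows of Lhx8 and Isl1 hold no unknown bases in NCBIM37. Whether reads could be placed there, and a mark below the threshold of the lists, were not tested.

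**Figure D2:**
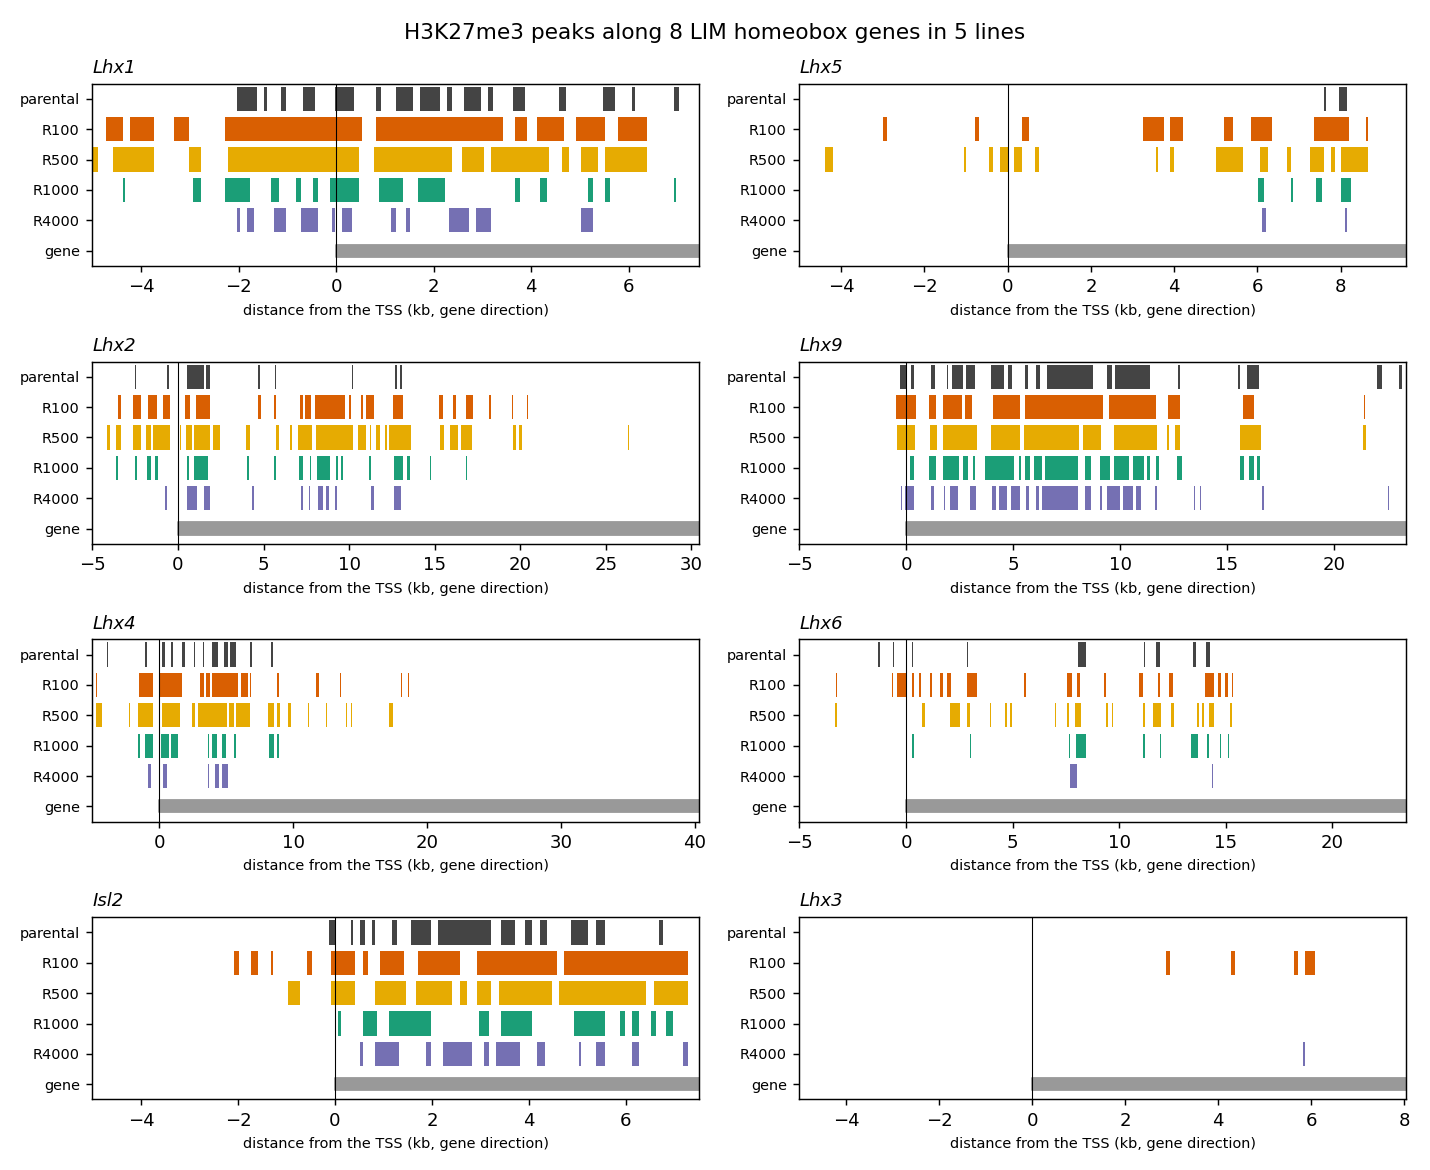
For each of the 8 genes with a peak, coloured blocks give the H3K27me3 peaks of each line (rows) by distance from the TSS in kb in the direction of the gene (x axis, from 5 kb upstream to the gene end, scaled per gene), and the grey bar is the gene. Peaks of R100 and R500 are wide and joined at Lhx1 and Isl2 where the parental, R1000 and R4000 lines have shorter separate peaks, and at Lhx3 there are 4 peaks in R100 and 1 in R4000.

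The relatives in a pair differed in 3 of the 5 pairs, where Lhx4, Lhx6 and Isl2 were covered in all lines and Lhx3, Lhx8 and Isl1 in at most R100. The same held for the pair outside the 10 genes. Lmx1b, a gene of the dorsal limb and midbrain, had 600 covered bases in the parental line, 4400 for R100, 4350 for R500, 900 for R1000 and 500 for R4000, and Lmx1a had 0 in each. To show how the starts of such pairs compare in sequence, the 200 bases upstream of the TSS are given for both, with CpG in capitals.
Isl1, no peak in any line, chr13:117099897-117100096, minus strand: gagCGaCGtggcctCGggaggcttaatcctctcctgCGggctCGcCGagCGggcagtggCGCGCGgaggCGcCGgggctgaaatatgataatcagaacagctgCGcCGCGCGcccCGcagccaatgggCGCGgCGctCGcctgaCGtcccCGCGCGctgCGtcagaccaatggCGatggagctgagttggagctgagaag
Isl2, a peak in 3 lines, chr9:55386279-55386478, plus strand: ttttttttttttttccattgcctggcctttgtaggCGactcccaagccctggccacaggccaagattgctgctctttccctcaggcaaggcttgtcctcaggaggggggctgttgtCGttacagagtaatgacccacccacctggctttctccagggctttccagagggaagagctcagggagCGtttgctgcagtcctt
Lhx8, no peak in any line, chr3:153993616-153993815, minus strand: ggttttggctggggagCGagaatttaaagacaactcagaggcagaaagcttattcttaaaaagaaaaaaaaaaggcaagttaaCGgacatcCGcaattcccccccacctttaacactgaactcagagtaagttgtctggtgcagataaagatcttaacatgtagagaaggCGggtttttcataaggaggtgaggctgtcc
Lhx6, a peak in 1 line, chr2:35960929-35961128, minus strand: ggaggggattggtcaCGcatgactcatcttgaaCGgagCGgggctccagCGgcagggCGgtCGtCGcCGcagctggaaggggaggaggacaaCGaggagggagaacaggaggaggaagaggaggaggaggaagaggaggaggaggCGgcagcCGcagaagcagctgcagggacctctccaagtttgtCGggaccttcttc
Isl1 had 27 CpG in these 200 bases and Isl2 had 3, while Lhx6 had 12 and Lhx8 had 4. The median over all protein-coding genes was 7, and 90.4% of them held at least 1. From 1 kb before to 1 kb after the TSS the ratio of observed to expected CpG was 0.779 at Isl1 and 0.642 at Lhx8, against 0.201 at Isl2, 0.449 at Lhx9, 0.622 at Lhx6 and a median of 0.468 over all protein-coding genes. In these 2 pairs the gene with the mark had the lower CpG ratio at its 5′ end, while Lhx4, with the mark, had 0.731 and Lhx3 0.239. At Lhx6 and Lhx8 the ratios were close, and CpG per 100 bases went the other way, 5.10 at Lhx6 and 3.70 at Lhx8. Of the other covered genes Lhx1 had a ratio of 0.786, Lhx5 0.615 and Lhx2 0.599. The ratio thus did not separate the genes with the mark from those without it. The 5′ end in the annotation need not be the start used most, and Isl2 and Lhx9 have 4 and 6 annotated starts.

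Setting each resistant line against the parental line, a gene was called higher with at least 2 times the parental covered bases and lower with at most 0.5 times, with at least 150 bases in the higher of the lists. In R100 7 of the 10 genes were higher (19.1% of all protein-coding genes) and 0 were lower (0.527%). In R500 5 were higher (14.3%) and 0 lower (0.581%). In R1000 Lhx5 and Lhx2 were higher, which is 2 genes (3.83%), and 0 were lower (2.34%). In R4000 0 were higher (2.63%) and 1, Lhx6, was lower (4.11%). Most genes have no peak, so the 7 genes covered in the parental line were also read against the 1716 protein-coding genes covered there. In R100 6 of the 7 were higher, with 62.4% of the 1716, and 0 lower, with 6.88%. In R500 5 were higher (60.1%) and 0 lower (7.58%). In R1000 2 were higher (12.6%) and 0 lower (30.5%), and in R4000 0 were higher (5.24%) and 1 lower (53.6%). The median ratio over the 7 genes was 2.71 for R100, 2.51 for R500, 1.13 for R1000 and 0.647 for R4000, beside 2.44, 2.33, 0.846 and 0.469 over the 1716 genes. With 7 genes, the 95% Wilson interval of the share called lower, which covers counting error only, was 0 to 35.4% in R1000 and 2.57 to 51.3% in R4000. By parental covered bases Lhx9 ranked 3 among protein-coding genes, Lhx1 33, Isl2 38, Lhx4 68, Lhx2 124, Lhx6 276 and Lhx5 1139. Most of the 7 were thus among the more covered of the 1716 genes, and the shares and medians were not matched for parental coverage. The 7 genes are related and were picked by their parental coverage, with 1 list per line. These intervals are therefore no test against the shares of the 1716 genes. With the 5 kb upstream alone 2 of the 10 genes were lower in R1000 and 3 in R4000, and with a fold of 1.5 over the whole windows 4 were lower in R4000. These comparisons share the parental list.

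**Figure D3:**
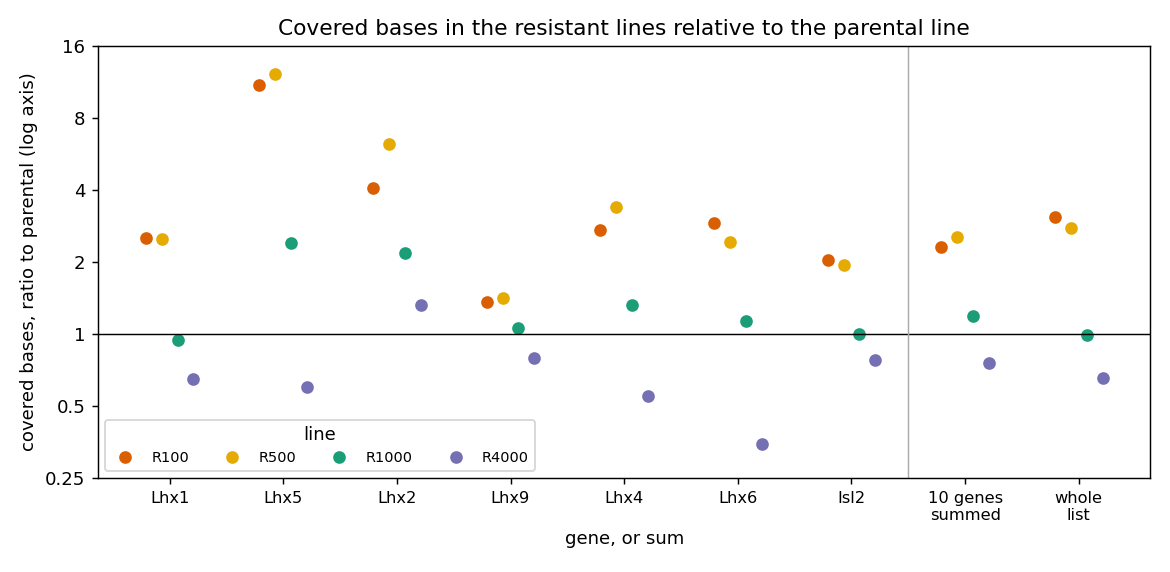
Points give covered bases in each resistant line divided by those of the parental line (y axis, log scale) for the 7 genes with parental peaks, for the 10 genes summed and for the whole list (x axis), 1 list per line. Lhx9 lies closest to 1 of the 7 genes in R100, R500 and R4000, at 1.35, 1.41 and 0.791, Lhx5 lies highest in R100 and R500, at 11 and 12.2, and Lhx2 alone lies above 1 in R4000.

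At the 10 genes the parental line had 82 peaks of a mean 246 bp, and R100 had 97 of 480 bp and R500 105 of 491 bp. In R1000 there were 89 of 269 bp and in R4000 67 of 229 bp. Over the whole lists the mean widths were 151 bp in the parental line, 199.99 bp for R100, 207 bp for R500, 168 bp for R1000 and 157 bp for R4000. Between the parental line and R100 the peaks at the genes differed more in width than in number, and 30 peaks of R100 and 32 of R500 were at least 500 bp wide, against 7 in the parental line, 19 for R1000 and 6 for R4000. With gaps of up to 1000 bp between peaks filled, the summed ratio to the parental line was 1.62 for R100 and 1.76 for R500, so that part of the difference was the filling of gaps between parental peaks. The whole-list ratios were then 2.80 for R100 and 2.53 for R500.

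The positions of the mark were compared next. Of the 20200 parental bases at the 10 genes, 80.7% were covered in R100, 82.7% were in R500, 59.9% in R1000 and 43.8% in R4000. Over the whole parental list the shares were 54.4%, 57.4%, 34.9% and 24.8%. Of the bases covered in R100 but not in the parental line at these genes, 74.8% lay within 1 kb of a parental peak, and in R500 76.0%, against 49.1% and 55.4% over the whole lists. At Lhx9 all of the 3950 such bases of R100 lay within 1 kb of a parental peak, while at Lhx5 26.0% of 2500 and at Lhx2 50.8% of 6100 did. At Isl2 the share was 92.5% and at Lhx4 89.7%. Such a share depends on how much of a window lies near parental peaks, which was not measured. Parental peaks numbered 18 at Lhx9, 16 at Lhx1, 15 at Lhx4, 13 at Isl2, 9 each at Lhx2 and Lhx6 and 2 at Lhx5. The shares therefore do not show whether the mark was gained preferentially beside parental peaks, at these genes or over the lists. R100 and R500 had 59.0% of the bases covered in either line in common at the 10 genes, the highest share of any pair of lines, against 34.4% over the whole lists. Of the R4000 bases, 87.9% were covered in R100 as well, 62.5% in R1000 and 57.7% in the parental line. A longer list raises such a share. Of the bases covered in either line, R4000 had 27.9% in common with R100, 24.8% with R500, 32.3% with R1000 and 33.1% with the parental line.

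Of the 65773 bases covered in at least 1 line, 5900 (8.97%) were covered in all 5, against 3.18% over the whole genome. Lhx9 held 3700 of them, Isl2 850, Lhx4 550, Lhx2 400, Lhx1 350 and Lhx5 50. Of the bases covered in any line, 27.4% were in all 5 at Lhx9 and 10.8% at Isl2, against 5.50% at Lhx4, 3.49% at Lhx1, 3.08% at Lhx2, 1.06% at Lhx5 and 0% at Lhx6. Of the parental bases of Lhx1, 45.6% were covered in R1000 and 33.8% in R4000.

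**Figure D4:**
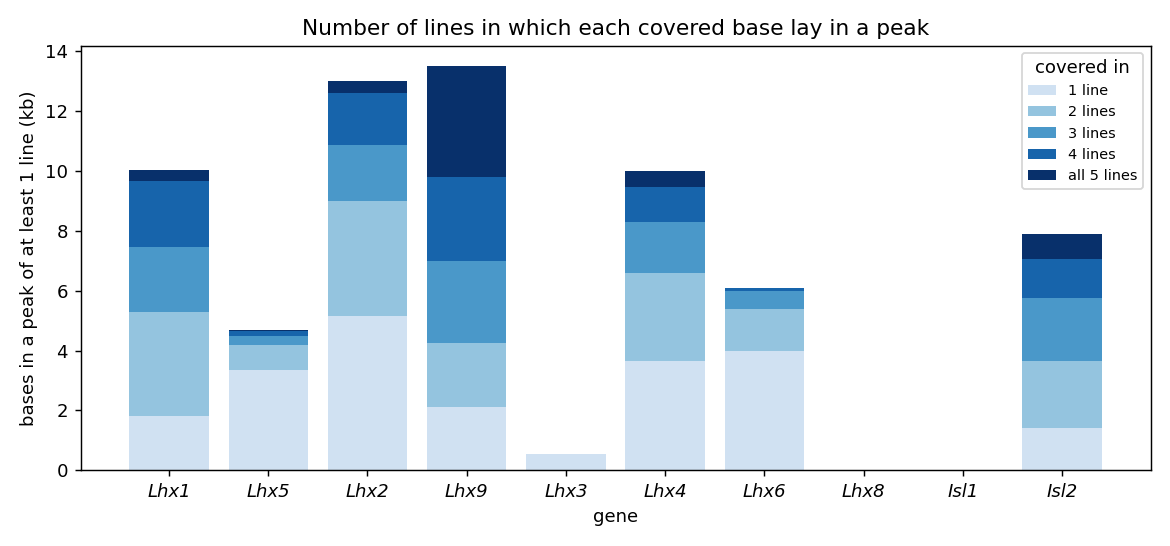
Stacked bars give, for each of the 10 genes (x axis), the kb covered in a peak of at least 1 line (y axis), split by the number of lines in which a base was covered, from 1 (light) to all 5 (dark). Lhx9 has the largest part in all 5 lines, 3700 of 13500 bases, and Lhx3, Lhx6, Lhx8 and Isl1 have none.

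Within the genes, introns held 73.3% of the covered bases in the parental line, 65.9% for R100, 66.4% for R500, 73.6% for R1000 and 75.5% for R4000, while introns made up 65.1% of the windows. The 5 kb upstream held 8.67% in the parental line, 16.8% for R100, 17.0% for R500, 10.8% for R1000 and 8.12% for R4000. Upstream coverage was 1752 bases in the parental line, 7852 for R100 and 8769 for R500, a wider difference from the parental line than over the whole windows. The upstream bases of R100 were 4.48 times those of the parental line and the upstream bases of R500 5.01 times.

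Covered bases were richer in CpG than the rest of the same windows. There were 3.66 CpG per 100 bases in the bases covered in at least 1 line, 4.80 in those covered in all 5 and 1.73 in those covered in none, and the content of G and C was 53.2%, 55.2% and 47.4%. The direction was the same at each of the 8 genes with a peak, from 2.98 against 1.99 at Lhx2 to 8.55 against 2.23 at Lhx3. The uncovered windows of Lhx8 and Isl1 had 1.84 and 2.06 CpG per 100 bases, within the range of the uncovered parts of the other genes. Lhx8 and Isl1 are given as whole windows, while the parts of the other genes leave out their covered bases. These values are therefore not like for like, and do not show whether the windows of Lhx8 and Isl1 are poorer in CpG. The effect of base composition on the sequencing of the libraries was not tested.

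**Figure D5:**
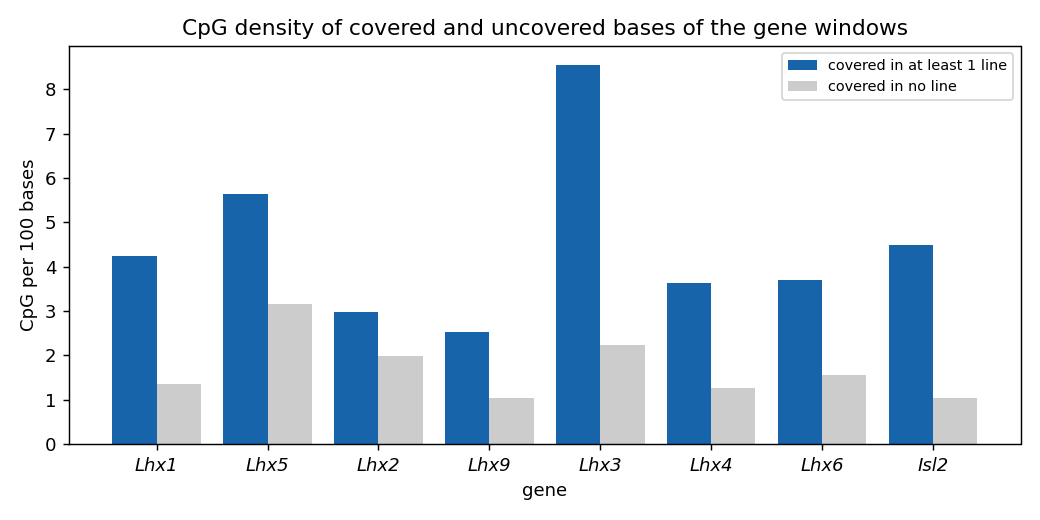
Bars give CpG per 100 bases (y axis) in the bases covered by a peak of at least 1 line (blue) and in no line (grey) within the windows of the 8 genes with a peak (x axis). The blue bar is higher at all 8 genes, from 2.52 at Lhx9 to 8.55 at Lhx3.

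Of 10 partners of the LIM homeodomain proteins, 0 were covered in the parental line. Of them 3 were covered in R100, 3 in R500 and 1 each in R1000 and R4000. Lmo2, a LIM-only protein of blood stem cells that joins Ldb1 to other factors, had 0 covered bases in the parental line, 1150 for R100, 1500 for R500, 250 for R1000 and 350 for R4000. Ssbp2 and Ssbp3, which bind Ldb1, had 450 and 300 bases in R100, 350 each in R500 and 0 in the other lines, and Ssbp4 had at most 100. Ldb1, Ldb2, Lmo1, Lmo3, Lmo4 and Rlim, the ubiquitin ligase of Ldb1, had 0 in each line. The shares of all genes covered, given above, were 21.7% in R100 and 17% in R500.

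Another group of homeobox genes is set beside them as values. Of 10 Otx, Emx and Dlx genes, 5 were covered in all 5 lines, against 7 of the 10 LIM homeobox genes. Their summed ratios to the parental line were 4.17 for R100, 3.53 for R500, 1.44 for R1000 and 1.17 for R4000. Their parental sum was 6000 bases, against 20200 at the LIM homeobox genes, and whether the groups differ was not tested.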

How the data were processed

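H3K27me3 ChIP-seq was analysed for 5 lines. Per the study's methods, reads of 50 bp came from chromatin bound by an antibody to H3K27me3, and the authors compared them with input, window by window, by a Poisson model to call peaks. The deposited values are start and end positions in bp, counted from 1, without any count or score beside them. The study gives a p-value limit for its clustering of promoters and describes biological replicates. The threshold of the deposited lists, whether they pool replicates, and the role of Bowtie, which the submitters' processing notes name with mm9, are not given in the sources used here. RRBS samples were not analysed here.

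No peak ran past the end of a chromosome of NCBIM37. Distinct peaks were used. For each protein-coding gene covered bases were summed with numpy 2.4.6 (Python 3.11.15), and figures were drawn with matplotlib 3.10.9. Tested on simulated data, 0 of 1000 sums differed from those counted at each base. The named genes are the 10 genes, Lmx1a, Lmx1b, the partner list, the nearest neighbours with covered bases (2310009B15Rik, with none, was named after its values were seen), Cdkn2a, marker genes, and the 3 genes most alike to the gene with the most covered bases over the 5 lists. The genes and lists were chosen with earlier results of these data known. With 1 list per line no test was made. The full list of B-cell genes and a further homeobox group are not reported here. Alternatives changed the window, the peaks used, the minimum and the fold.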

Additional observations from a re-analysis of the deposited data

Results flagged for a closer look

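At Lhx1 the low-dose and high-dose lines moved in opposite directions from the parental line. Covered bases were 2.51 times the parental number in both R100 and R500, whereas R1000 had 0.941 times and R4000 0.647 times that number. The parental line had 3400 bases. The direction did not hold in the 5 kb upstream of the TSS, where the parental line had 827 bases, R1000 1177 and R4000 850, and within 2 kb of the TSS R1000 had 2001 bases against 1901 in the parental line. The difference was not tested, since there is 1 list per line, and R1000 differed from the parental line by 200 bases, or 4 bins of 50 bp. The pattern was not particular to Lhx1. The whole lists had 3.09 times the parental bases for R100, 2.78 for R500, 0.988 for R1000 and 0.658 for R4000. Over the 1716 protein-coding genes covered in the parental line the median ratios were 2.44, 2.33, 0.846 and 0.469.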

How the results depend on the processing

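The depth of the libraries is unknown and each line has 1 list, which limits every comparison between lines. No paired analysis was possible because each line has 1 list and the labels give no replicate numbers. Values and counts were taken as moved where they changed by more than 1.5 times. Of 142 values under alternatives 118 stayed within that limit, 24 moved, and none of the summed ratios changed sides of the parental line.

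With the 5 kb upstream of the TSS only, the summed ratio was 4.48 for R100 and 5.01 for R500, 3 genes were covered in R1000, 2 in R4000 and 2 in all 5 lines, and 2 were lower in R1000 and 3 in R4000. With 2 kb on both sides of the TSS, 1 gene was higher and 1 lower in R1000. With peaks at least 500 bp wide, the summed ratio was 4.62 for R100 and 5.00 for R500, 3 genes were covered in each of the parental line, R4000 and all 5 lines, and 1750 bases were shared by all 5 lines. The whole-list ratios of such peaks were 4.88 for R100 and 4.65 for R500. In R1000 the genes had 1.77 against 1.17 for the list, and in R4000 0.589 against 0.664. R500 was thus above its list and R4000 below, the reverse of the main setting. With peaks within 1000 bp joined, 4 genes were higher in R100, 3 in R500 and 1 in R1000, and 3 were lower in R4000. With a fold of 3, 3 were higher in R100, 3 in R500 and 0 in R1000, and 0 were lower in R4000. With a fold of 1.5, 4 were lower in R4000. The smaller counts under a higher fold follow from the rule, and the cause of the others was not tested. With the widest 6820 peaks of each list no value moved. The summed ratios were then 2.19 for R100, 2.48 for R500, 1.21 for R1000 and 0.793 for R4000. Over the whole lists they were 2.37, 2.27, 1.03 and 0.749, so that at the genes R500 lay above its list, unlike in the main setting.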

Other observations

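Among the neighbours of the 10 genes, Qsox1, 36128 bp from Lhx4, had 400 covered bases in the parental line, 1200 for R100, 900 for R500, 700 for R1000 and 50 for R4000, and Nek6, 141910 bp from Lhx2, had 100, 700, 750, 350 and 150 in the same order of lines. Nacc2, 76992 bp from Lhx3, had 450 for R100, 700 for R500, 100 for R1000 and 0 in the other lines. Scaper, 3703 bp from Isl2, had 400 in the parental line, 150 in R500 and 0 in the other lines.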
